A study of Mus musculus with 15 samples.

Results

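CT2A and Mut3 are mouse glioma lines, and the 3 tumors grown from CT2A cells were compared here with the 3 tumors grown from Mut3 cells, gene by gene, across all genes measured. The members are the 6 samples whose labels name CT2A or Mut3, of 15 samples in the study, and 17481 of 46679 genes had enough reads to be tested. CT2A arose from chemical induction with methylcholanthrene and is described by the study as p53 wild type. Mut3 was derived from tumors of mice in which the tumor suppressors Nf1 and Trp53 had been inactivated. CT2A cells were grown in medium with serum, whereas Mut3 cells were grown without serum in neural medium with the growth factors EGF and FGF-2. Both lines had been transduced with GFP and firefly luciferase and were implanted into the brain of C57BL/6 mice aged 6 to 8 weeks. Mice received 100000 CT2A cells or 500000 Mut3 cells without further treatment, were perfused at the humane end-point and gave 1 tumor each. Mice with CT2A tumors reached that point sooner, so the line, its culture, the number of implanted cells and the time of growth cannot be told apart in this comparison. Each line stands for 1 origin, and the replicates are mice that carry the same line. Brain of 3 naïve mice, sequenced in the same way, is given as the background level.

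Gliomas can keep programs of the neural stem cells and glial progenitors from which the brain's glia develop, with transcription factors such as Olig2 and Sox2, or take on a mesenchymal state with genes of migration, wound repair and matrix such as Cd44 and Twist1. NF1 is a brake on growth signalling through RAS and the ERK kinases. Bulk RNA of a tumor also holds RNA of the host's macrophages, microglia, lymphocytes, vessels and brain cells. In such samples, fewer cells of a type and less RNA per cell cannot be told apart.

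Expression is given as CPM, which are read counts scaled to the size of the library and normalized between samples, with values of a group in the order of replicates 1, 2 and 3. Fold changes are log2 of CT2A over Mut3 with the standard error of the fit, and positive values are higher in CT2A. A gene was called at a Benjamini-Hochberg adjusted p under 0.05 (edgeR's quasi-likelihood test, adjusted over all 17481 genes) where its log2 fold change was also 1 or more in size. The total count was between 7246421 and 8825088 in CT2A tumors and between 7525006 and 11308105 in Mut3 tumors. At these depths 3 counts, taken as the floor, correspond to 0.264 to 0.466 CPM, a limit for counting error alone. The mitochondrial share of counts was 3.48% to 7.59% in CT2A tumors, the highest in CT2A replicate 1, and 5.36% to 5.96% in Mut3 tumors. CT2A replicate 1 held more neuronal transcripts than the other CT2A and Mut3 tumors. Summed over 19 neuronal genes, it had 1620.2 CPM, the other CT2A tumors 328 and 396 CPM, and Mut3 tumors 82.2 to 232 CPM. Naïve brain had 7621 to 9176 CPM of these genes. The markers of dividing cells set both tumors apart from brain, with Mki67 at 62.04 to 82.3 CPM in CT2A, 123 to 284 CPM in Mut3 and 1.89 to 3.06 CPM in naïve brain.

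Many genes differed between the tumor types. Of the 17481 genes tested, 1156 were higher in CT2A (6.61%) and 1075 were lower (6.15%), which is 12.8% in all, and the median log2 fold change over all genes was 0.02. Among the called genes, 448 were at least 8-fold higher and 408 at least 8-fold lower. All 3 CT2A values were above all 3 Mut3 values for 19.9% of the genes, and all 3 Mut3 values were above for 19.2%. Scaling by library size alone moved the median of all genes by 0.154 on the log2 scale. The number of higher genes was 699 without Mut3 replicate 1, and the number of lower genes was 502, 571, 647 and 707 without CT2A replicate 2, CT2A replicate 3, Mut3 replicate 1 and Mut3 replicate 3. Correlations of log2 levels across genes were 0.928 to 0.951 between tumors of the same line and 0.817 to 0.850 between the lines.

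**Figure D1:**
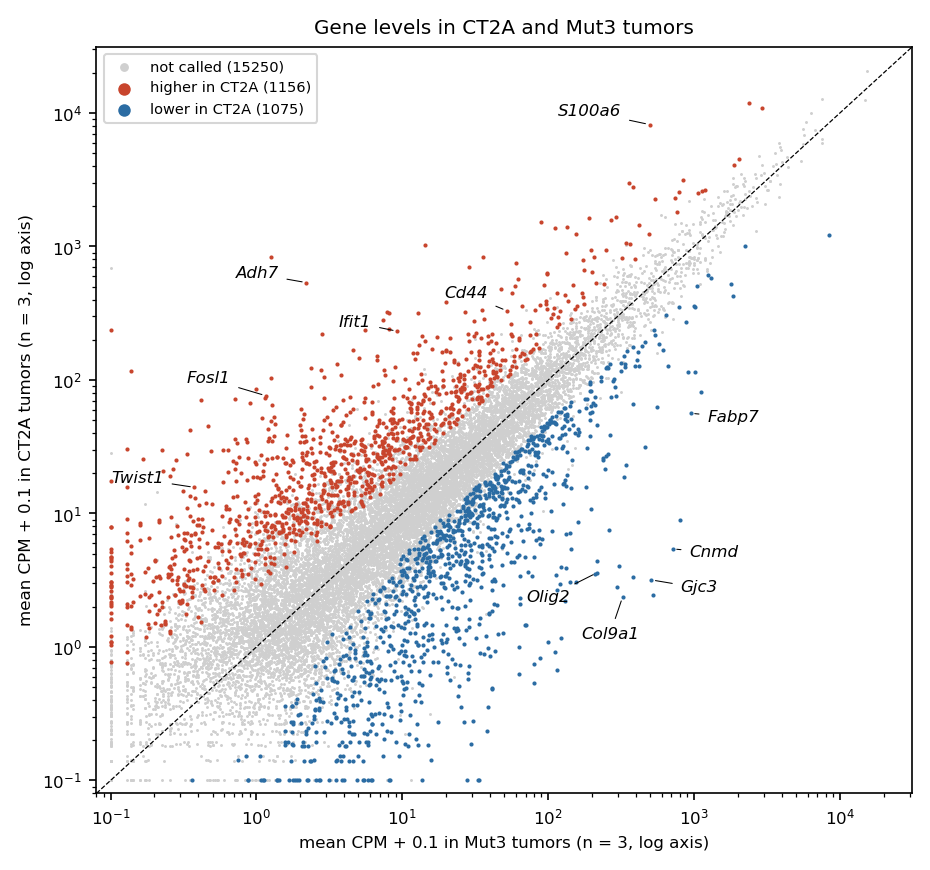
Mean level of each of 17481 genes in Mut3 tumors (horizontal axis) and CT2A tumors (vertical axis), as CPM + 0.1 on log axes, n = 3 per group. Red points are the 1156 genes called higher in CT2A, blue points the 1075 called lower, grey points were not called, and the dashed line marks equal levels.

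Among genes with more than 3 counts in each Mut3 tumor, the largest increase was that of Adh7, an alcohol and retinol dehydrogenase (ENSMUSG00000055301, chr3:138217760-138233382 on GRCm38). It was at 438, 532 and 638 CPM in CT2A tumors and at 1.01, 3.52 and 1.76 CPM in Mut3 tumors (log2 fold change 8.00 ± 0.57, adjusted p = 2.66e-06). Others among the 10 such genes with the largest increase were Fosl1 (an AP-1 transcription factor), Hmga2 (a chromatin protein of fetal tissue), Tes (a focal adhesion protein), Prkg2 (a cGMP-dependent kinase), Tmem45a, the long non-coding RNA Wincr1 and the granzymes Gzmd and Gzmf. Hmga2 was at 99.2, 157 and 99.98 CPM in CT2A and 3.36, 3.02 and 1.67 CPM in Mut3 (log2 fold change 5.47 ± 0.75, adjusted p = 0.000407). Tes was at 249, 356 and 363 CPM against 4.25, 13.7 and 5.36 CPM (log2 fold change 5.38 ± 0.64, adjusted p = 0.000147). For each of these genes the lowest CT2A value was several times the highest Mut3 value. Genes with more than 3 counts in some but not all Mut3 tumors stand outside this order. Of them Coro2a, an actin-binding coronin chosen after its values were seen, had 5013, 5777 and 7562 counts in CT2A and 8, 1 and 28 in Mut3 (log2 fold change 9.40 ± 0.70, adjusted p = 3.85e-06). The activin chain Inhba had 586, 694 and 1026 against 3, 23 and 3 (6.52 ± 0.81, adjusted p = 0.000214).

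Some genes were seen in CT2A and hardly at all in Mut3. Olfr805, an olfactory receptor gene at chr10:129721221-129729375, had 126, 146 and 112 counts in CT2A tumors and 0 counts in all 3 Mut3 tumors, which is at least 162-fold higher when 3 counts over the Mut3 group are taken as the floor. Pthlh, which encodes parathyroid hormone-related protein, had 170, 225 and 165 counts in CT2A and 1, 0 and 1 in Mut3 (count ratio 354, 95% exact interval 97.4 to 2927). Plag1, an oncogenic zinc finger factor of fetal tissue, had 125, 206 and 322 counts in CT2A and 0, 3 and 0 in Mut3 (count ratio 275, 95% exact interval 93.7 to 1337). The orphan receptor Gpr149 showed the same pattern (count ratio 166, 95% exact interval 80.2 to 414).

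In the other direction, Gjc3, a connexin of myelinating glia (ENSMUSG00000056966, chr5:137953461-137963098), was at 4.76, 2.02 and 2.45 CPM in CT2A and 296, 266 and 967 CPM in Mut3 (log2 fold change −7.35 ± 0.86, adjusted p = 0.000129). Col9a1, a chain of cartilage collagen IX, was at 2.20, 2.02 and 2.58 CPM against 384, 238 and 349 CPM (log2 fold change −7.15 ± 0.48, adjusted p = 1.83e-06). Cnmd, which encodes the cartilage protein chondromodulin, was at 3.91, 6.52 and 5.55 CPM against 252, 644 and 1242 CPM (log2 fold change −7.06 ± 0.59, adjusted p = 9.37e-06). Both cartilage genes were below the level of naïve brain in every CT2A tumor, since naïve brain had 3.88, 4.98 and 2.70 CPM for Col9a1 and 7.14, 9.96 and 7.84 CPM for Cnmd. Cyct, a cytochrome c gene of the testis, was lower in CT2A as well (−7.09, at 40.6 to 172 CPM in Mut3), as was Xlr3c (−6.11), a member of an X-linked gene family whose near-identical copies may share reads. Dcpp1 had 0 counts in all CT2A tumors and 32, 67 and 139 in Mut3 tumors, at least 62.8-fold lower in CT2A with 3 counts over the group as the floor, although DESeq2 did not call it. Platr3, a long non-coding RNA, had 1, 1 and 1 counts in CT2A and 183, 388 and 509 in Mut3 (count ratio 285, 95% exact interval 97.3 to 1384, as Mut3 over CT2A).

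The lines differ in the tumor suppressors they lost. Transcripts of Trp53, the gene of p53, were at 53.4, 65.05 and 67.3 CPM in CT2A and 86.7, 51.6 and 43.01 CPM in Mut3 (log2 fold change 0.03 ± 0.32, adjusted p = 0.957), and those of Nf1 at 15.3, 15.7 and 12.1 CPM against 21.6, 13.7 and 14.9 CPM (log2 fold change −0.22 ± 0.35, adjusted p = 0.727). For both genes the groups overlapped. A transcript level does not show whether a gene is inactivated, so these values are no check of the labels. Cdkn2a, the gene of the INK4A and ARF inhibitors, was detected in both tumors (6.47, 8.69 and 12.7 CPM against 5.59, 4.66 and 9.06 CPM) and had a count of 0 in naïve brain.

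Of 29 p53 target genes tested, 2 were higher and 3 lower in CT2A (6.61% and 6.15% of all genes), and their median log2 fold change was −0.26, beside 0.02 over all genes. Btg2, an antiproliferative gene, was at 11.2, 15.4 and 14.98 CPM in CT2A and 105, 85.6 and 56.3 CPM in Mut3 (log2 fold change −2.57 ± 0.40, adjusted p = 0.000901). Sesn1, an inhibitor of mTORC1 signalling, was also lower (−2.05, adjusted p = 0.0131), although its call was lost without CT2A replicate 2 (−1.99), CT2A replicate 3 (−1.84) or Mut3 replicate 2 (−1.26). Phlda3, an inhibitor of AKT, had 19, 27 and 37 counts in CT2A and 2, 2 and 2 in Mut3 (count ratio 17.5, 95% exact interval 7.70 to 48.98). The canonical targets Cdkn1a (0.82, adjusted p = 0.468), Mdm2 (0.84, adjusted p = 0.0759) and Ccng1 (−0.27, adjusted p = 0.653) did not pass the test. Of the 29 genes, 13 had a positive and 16 a negative fold change. Without CT2A replicate 2 or CT2A replicate 3 edgeR called 1 higher and 1 lower, without Mut3 replicate 2 it called 2 and 1, and Polk and Trp53inp1, like Sesn1, lost their calls in all of these fits.

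Many of the genes that ERK signalling switches on as its own feedback were higher in CT2A. Of 16 tested, 9 were higher and 0 lower, with a median log2 fold change of 1.23. The phosphatase Dusp6, which removes the activating phosphate from ERK, was at 48.6, 77.5 and 83.96 CPM in CT2A and 13.98, 11.4 and 15.7 CPM in Mut3 (log2 fold change 2.35 ± 0.42, adjusted p = 0.00228). Spry1, an inhibitor of receptor signalling to RAS, was at 29.4, 26.1 and 33.5 CPM against 5.15, 2.01 and 3.61 CPM (log2 fold change 3.04 ± 0.61, adjusted p = 0.00484). Spred1, a partner of NF1, was at 111, 131 and 114 CPM against 53.3, 29.7 and 56.3 CPM (log2 fold change 1.36 ± 0.31, adjusted p = 0.0103). Fosl1 was at 57.4, 90.4 and 80.5 CPM against 0.895, 1.76 and 0.528 CPM (log2 fold change 6.18 ± 0.91, adjusted p = 0.000614), which made it the most changed member. Every CT2A tumor exceeded every Mut3 tumor for each of these 4 genes. Ccnd1, the gene of cyclin D1, was also higher (2.05, adjusted p = 0.0357), but its call was lost in 5 of the 6 fits that leave out a tumor, with differences of 1.73 to 2.39. Etv5 was at 12.2, 18.3 and 16.02 CPM against 20.4, 26.5 and 16.2 CPM (−0.44, adjusted p = 0.371) and did not pass the test. The number of higher members was 5 without CT2A replicate 2 or without Mut3 replicate 1, 6 without CT2A replicate 3 or Mut3 replicate 3, and 4 in limma on log2(TPM + 1).

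Receptor tyrosine kinases receive growth factor signals at the cell surface. Of 27 tested, 5 were higher in CT2A and 2 lower (18.5% and 7.41%, beside 6.61% and 6.15% of all genes), with a median of 0.53. With DESeq2 the numbers were 9 and 5, and 8 and 4 in the fit of the 6 tumors alone. Leaving out any single tumor but CT2A replicate 1 gave 1 lower. Met, the receptor of hepatocyte growth factor, was at 16.4, 36.2 and 12.3 CPM in CT2A and 0.448, 0.881 and 0.528 CPM in Mut3 (log2 fold change 5.11 ± 0.92, adjusted p = 0.00253). Fgfr1 was at 84.3, 92.4 and 81.9 CPM against 15.1, 21.9 and 14.7 CPM (log2 fold change 2.32 ± 0.36, adjusted p = 0.000905), Axl at 34.7, 38.3 and 37.6 CPM against 8.06, 11.3 and 7.74 CPM (log2 fold change 2.03 ± 0.47, adjusted p = 0.0111). Erbb3, a receptor of neuregulins, was lower, at 1.10, 1.24 and 1.55 CPM against 30.8, 24.7 and 12.5 CPM (log2 fold change −4.11 ± 0.63, adjusted p = 0.000832). Egfr (−0.63, adjusted p = 0.584) and Pdgfra (0.63, adjusted p = 0.248), receptors often altered in glioma, did not pass the test. The ligand of Met, Hgf, had 65, 46 and 40 counts in CT2A tumors and 3, 2 and 2 in Mut3 tumors (count ratio 27.2, 95% exact interval 12.9 to 68.9).

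Most genes of neural stem cells and glial progenitors were lower in CT2A. Of 25 tested, 17 were lower and 0 higher, with a median log2 fold change of −2.61. At an unadjusted p under 0.05, 2 were higher, and 1 was called higher by DESeq2 and 1 by edgeR without Mut3 replicate 2. All 3 Mut3 values were above all 3 CT2A values for 19 of the 25, beside 19.2% of all genes. Olig2, a basic helix-loop-helix factor that defines the oligodendrocyte lineage (chr16:91225457-91228677), was at 6.11, 2.17 and 2.20 CPM in CT2A and 207, 124 and 316 CPM in Mut3 (log2 fold change −5.93 ± 0.57, adjusted p = 2.74e-05). Naïve brain had 9.996, 20.9 and 10.5 CPM, so that CT2A tumors were below and Mut3 tumors above the level of normal brain. Sox8 was at 2.08, 1.24 and 2.97 CPM against 158, 104 and 128 CPM (log2 fold change −5.93 ± 0.54, adjusted p = 2.05e-05). Fabp7, a lipid carrier of radial glia, was abundant in Mut3 at 814, 904 and 1124 CPM and was at 70.3, 37.1 and 61.1 CPM in CT2A (log2 fold change −4.07 ± 0.55, adjusted p = 0.000379). Gpr17, a receptor of early oligodendrocytes, had the largest fold change of the list (0.977, 1.09 and 1.16 CPM against 183, 56.1 and 125 CPM, log2 fold change −6.80 ± 0.67, adjusted p = 3.31e-05). It lies inside the gene Lims2 on the opposite strand, and Lims2 was lower too (−5.92). Whether the counting used the strand is not given in the sources used here, so reads of these genes may not have been told apart.

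Other members of the list that were lower were Olig1 (−4.52, adjusted p = 0.00116), Sox10 (−2.61, adjusted p = 0.0142, lost without CT2A replicate 2 at −2.52 or CT2A replicate 3 at −2.60), Sox11 (−3.69, adjusted p = 0.000901), the proteoglycan Cspg4 (−2.25, adjusted p = 0.00369) and the phosphatase Ptprz1 (−3.53, adjusted p = 0.00496). Sox2, the stem cell factor shared by many gliomas, was not called: it was at 50.1, 87.7 and 72.7 CPM in CT2A and 184, 105 and 88.04 CPM in Mut3 (log2 fold change −0.84 ± 0.40, adjusted p = 0.184), above the 13.2 to 36.1 CPM of naïve brain in all 6 tumors. The intermediate filament Nes (10.7, 21.7 and 25.96 CPM against 56.7, 51.5 and 17.9 CPM, adjusted p = 0.289) overlapped between the groups. Sox9 was at 59.6, 85.7 and 82.2 CPM against 25.2, 63.04 and 11.96 CPM (1.185, adjusted p = 0.114). With genes at the floor left out, the median of the list was −2.43. The number of lower members was 13 to 17 over the fits that leave out a tumor, 10 among genes with at least 10 counts in each of the 6 samples and 11 in limma on log2(TPM + 1).

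Transcription factors that set regional identity differed as well. Of 19 forebrain factors tested, 4 were higher in CT2A and 0 lower, with a median of 1.37, or 0.36 over the 13 measured above the floor. Without Mut3 replicate 3 the number was 2. Pax6, a factor of cortical progenitors, was at 16.1, 9.16 and 14.98 CPM in CT2A, 3.13, 1.38 and 3.52 CPM in Mut3 and 9.79, 4.23 and 15.95 CPM in naïve brain (log2 fold change 2.31 ± 0.55, adjusted p = 0.0131, lost without Mut3 replicate 2 at 2.005). Nr2f2 was at 110.4, 174 and 132 CPM against 39.3, 48.9 and 29.6 CPM (log2 fold change 1.82 ± 0.44, adjusted p = 0.0144, lost without Mut3 replicate 3 at 1.77). Of 39 Hox genes, which pattern the body axis behind the forebrain, 12 were tested, 6 were higher in CT2A and 1 was lower (2 without CT2A replicate 1). Their median was 3.51, or 0.03 over the 8 above the floor. Of the 6 higher members, Hoxc10, Hoxc11, Hoxd8 and Hoxd10 had at most 3 counts in each Mut3 tumor and passed the filter on low counts through CT2A or other groups. Hoxa10 was at 26.01, 46.4 and 40.9 CPM in CT2A, 0.336, 2.77 and 0.528 CPM in Mut3 and 0.204 to 0.996 CPM in naïve brain (log2 fold change 4.99 ± 0.94, adjusted p = 0.00326). Hoxc10 had 58, 67 and 81 counts in CT2A and 2, 2 and 0 in Mut3 (count ratio 65.05, 95% exact interval 25.02 to 241), and Hoxd10 had 33, 41 and 47 against 1, 2 and 3 (count ratio 25.5, 95% exact interval 11.4 to 70.8). Hoxa5 went the other way, at 5.01, 4.19 and 2.45 CPM in CT2A and 25.1, 46.3 and 29.2 CPM in Mut3 (log2 fold change −3.10 ± 0.61, adjusted p = 0.00429). Naïve brain had 0 to 0.747 CPM of Hoxa5, below all 6 tumors.

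Many mesenchymal genes were higher in CT2A. Of 30 tested, 14 were higher and 0 lower, with a median of 1.64, and the number of higher members was 11 to 14 over the fits that leave out a tumor. Cd44, a receptor of hyaluronan, was at 245, 371 and 373 CPM in CT2A and 27.3, 68.1 and 60.6 CPM in Mut3 (log2 fold change 2.66 ± 0.50, adjusted p = 0.00329). The small calcium-binding protein S100a4 was at 552, 698 and 863 CPM against 29.9, 38.9 and 16.9 CPM (log2 fold change 4.63 ± 0.61, adjusted p = 0.000327). S100a6 was at 5800.0, 9533 and 9233 CPM against 550.4, 516 and 419 CPM (log2 fold change 4.05 ± 0.65, adjusted p = 0.00110). Twist1, a transcription factor of mesenchymal transition, was at 14.3, 18.01 and 14.5 CPM against 0.224, 0.252 and 0.352 CPM (log2 fold change 5.72 ± 0.66, adjusted p = 0.000119). Its relative Twist2 had 23, 29 and 38 counts against 0, 0 and 1 (count ratio 114, 95% exact interval 19.9 to 4539). None of these genes overlapped between the tumor types, and Twist1 was near the floor in Mut3 as it was in naïve brain (0.270 to 1.43 CPM).

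Secreted members of the same list included thrombospondins, which bind matrix and limit vessel growth. Thbs1 was at 174, 163 and 101 CPM in CT2A and 4.92, 8.18 and 1.76 CPM in Mut3 (log2 fold change 4.89 ± 0.67, adjusted p = 0.000408). Thbs2 was at 163, 221 and 236 CPM against 9.17, 26.2 and 27.9 CPM (log2 fold change 3.29 ± 0.58, adjusted p = 0.00210). Postn, the matrix protein periostin, varied among CT2A tumors, at 27.97, 62.9 and 133 CPM, and was at 4.59, 3.77 and 4.57 CPM in Mut3 (log2 fold change 4.11 ± 0.65, adjusted p = 0.000964). Chil1, the mouse gene of the YKL-40 protein, was at 170.5, 179 and 41.98 CPM against 2.13, 4.40 and 3.87 CPM (log2 fold change 5.23 ± 0.59, adjusted p = 0.000110). N-cadherin (Cdh2) was at 90.00, 103 and 75.2 CPM against 7.16, 4.28 and 7.21 CPM (log2 fold change 3.84 ± 0.33, adjusted p = 1.28e-05), with naïve brain at 59.8 to 104 CPM. Vimentin (Vim) and fibronectin (Fn1), often used as mesenchymal markers, did not pass the test: Vim was at 856, 1101 and 979 CPM against 764, 860.3 and 269 CPM (0.63, adjusted p = 0.467), and Fn1 at 107, 102 and 94.9 CPM against 92.3, 248 and 101 CPM (−0.54, adjusted p = 0.423).

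**Figure D2:**
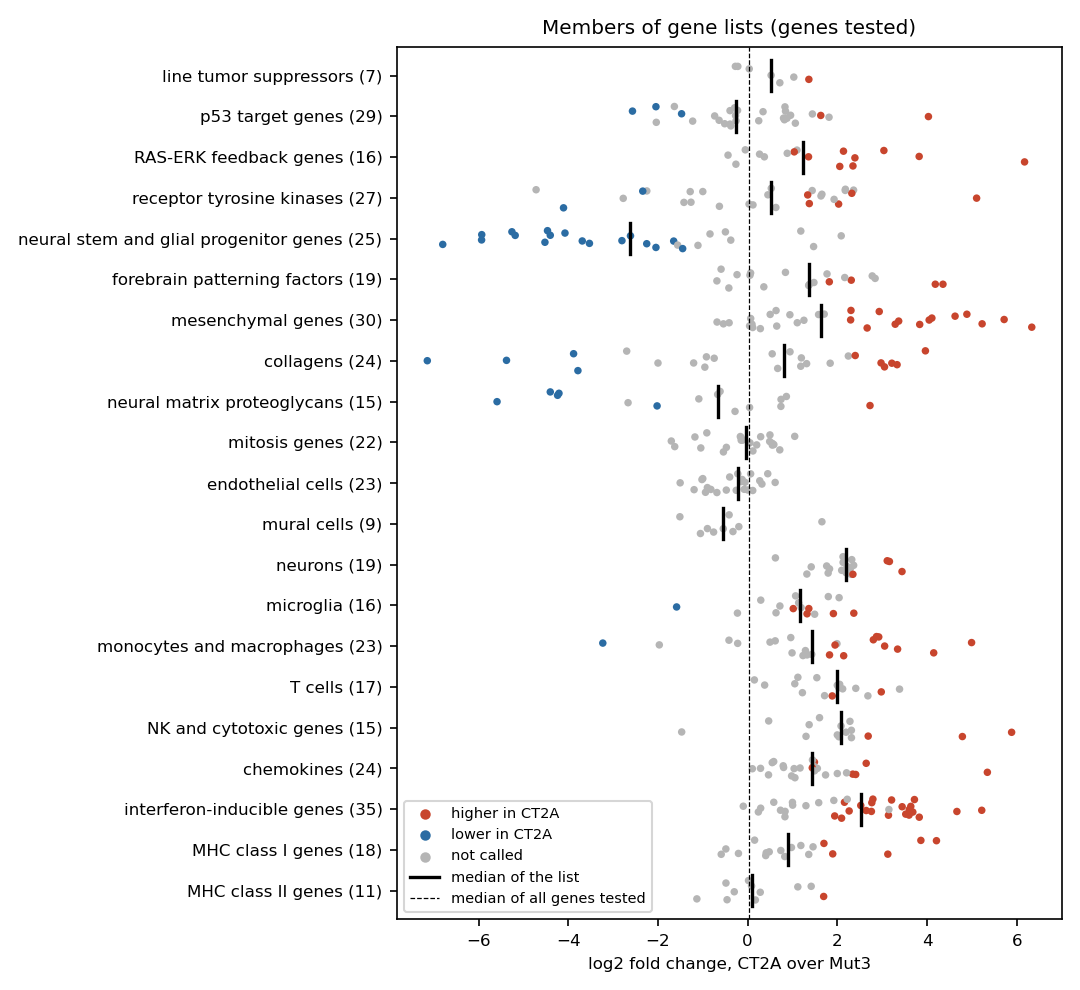
Log2 fold change (CT2A over Mut3) of each tested member of 21 gene lists, with the number tested in parentheses. Red members were called higher in CT2A, blue members lower and grey members neither. Black bars are list medians and the dashed line is the median of all genes, 0.02. Neural stem and glial progenitor genes lie to the left, and mesenchymal and interferon-inducible genes to the right.

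Collagens moved in both directions. Of 24 tested, 6 were higher in CT2A and 4 lower. The higher ones included Col3a1, a fibrillar collagen of connective tissue, at 348, 551 and 533 CPM in CT2A and 103, 32.3 and 7.30 CPM in Mut3 (log2 fold change 3.33 ± 0.67, adjusted p = 0.00472). They also included the basement membrane chain Col4a1, at 226, 324 and 306 CPM against 33.8, 37.6 and 37.5 CPM (log2 fold change 2.97 ± 0.55, adjusted p = 0.00300), and Col5a2 (3.96, adjusted p = 0.000414). The lower ones were Col2a1, Col9a1, Col9a3 and Col11a1, which are collagens of cartilage. Col2a1 was at 2.69, 2.33 and 3.62 CPM in CT2A and 141, 153 and 68.3 CPM in Mut3 (log2 fold change −5.38 ± 0.43, adjusted p = 6.66e-06), and Col11a1 at 21.5, 23.4 and 24.4 CPM against 146, 223 and 654 CPM (log2 fold change −3.88 ± 0.53, adjusted p = 0.000391). In TPM, a level per gene length, Col3a1 ranked first in CT2A among the 25 collagens of the list (17.5 ± 2.28 TPM, SD, n = 3) and eighth in Mut3 (1.99 ± 2.05 TPM). Col9a1 ranked first in Mut3 (27.1 ± 6.02 TPM) and 20th in CT2A (0.171 ± 0.0234 TPM). The list did not hold every collagen (Col9a2 and Col11a2 were not on it), so these ranks hold within the list alone. Col1a1 was low in both (3.18, 15.2 and 3.62 CPM against 5.26, 7.68 and 2.11 CPM, adjusted p = 0.628).

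Some genes of neural matrix were lower in CT2A. Of 15 proteoglycans and link proteins of neural matrix, 5 were lower in CT2A and 1 was higher. None was called higher without CT2A replicate 1, Mut3 replicate 1 or Mut3 replicate 3. Hapln1, a link protein that ties proteoglycans to hyaluronan, was at 7.94, 12.3 and 11.9 CPM in CT2A and 196, 172 and 226 CPM in Mut3 (log2 fold change −4.21 ± 0.75, adjusted p = 0.00228). Brevican (Bcan), a brain proteoglycan, was at 2.93, 1.09 and 1.94 CPM against 55.4, 33.7 and 39.05 CPM (log2 fold change −4.40 ± 0.69, adjusted p = 0.000986). Tenascin-R (Tnr) was at 3.54, 2.64 and 14.7 CPM against 122, 59.01 and 216 CPM (log2 fold change −4.24 ± 0.73, adjusted p = 0.00180). Versican (Vcan) was high in both, at 154, 317 and 239.6 CPM against 619, 409 and 485 CPM, and did not pass the test (−1.09, adjusted p = 0.271). Of 17 matrix metallopeptidases and inhibitors, 3 were lower in CT2A and 0 higher with edgeR on all 15 samples. At an unadjusted p under 0.05, 6 were higher. DESeq2 called 3 higher, and the fit of the 6 tumors alone 4 higher and 3 lower. Mmp15 and Timp4 lost their calls without CT2A replicate 2, CT2A replicate 3, Mut3 replicate 1 or Mut3 replicate 3, which left 1 lower. Without CT2A replicate 1 or Mut3 replicate 1, 1 was called higher. The gelatinase Mmp2 was at 4.88, 5.74 and 10.3 CPM in CT2A and 139, 67.1 and 215 CPM in Mut3 (log2 fold change −4.32 ± 0.63, adjusted p = 0.000611), whereas Mmp9 was low in both (2.20, 4.19 and 5.43 CPM against 1.45, 0.755 and 1.14 CPM, adjusted p = 0.0763).

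**Figure D3:**
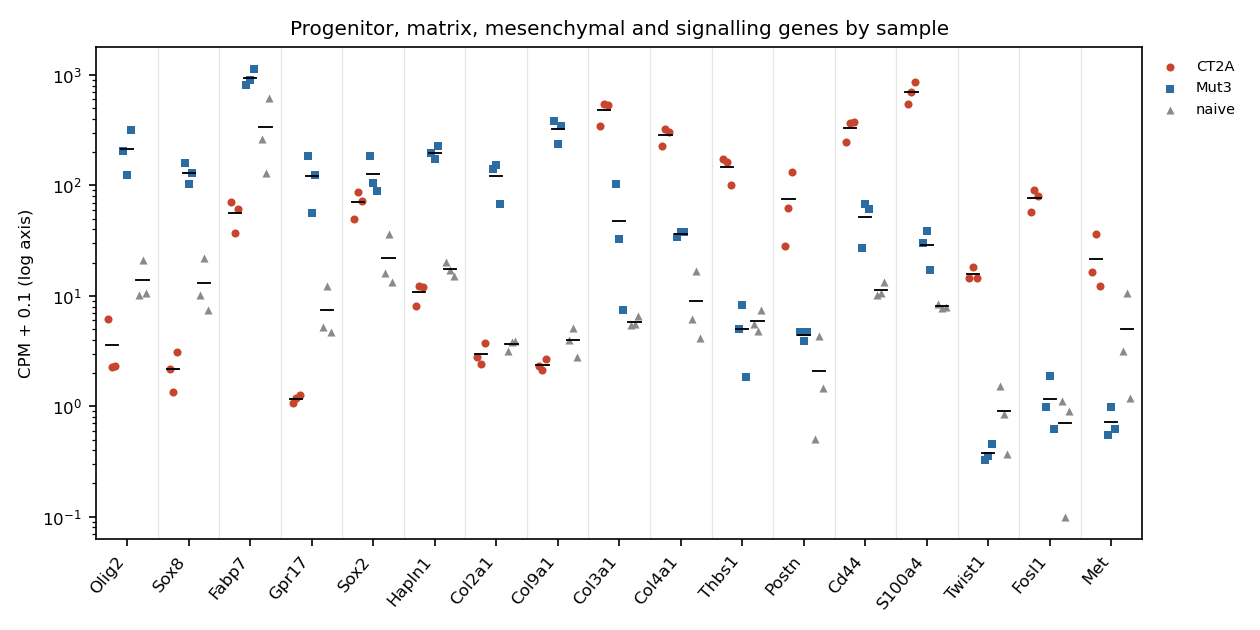
Level of 17 genes in each CT2A, Mut3 and naïve sample (CPM + 0.1, log axis), with n = 3 per group; the black bar is the mean. Olig2 to Gpr17, Hapln1, Col2a1 and Col9a1 are higher in Mut3, Sox2 was not called, and Col3a1 to Met are higher in CT2A.

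Cell cycle genes are given by phase, beside 6.61% of all genes higher and 6.15% lower. Of 22 mitosis genes, 0 were higher and 0 lower with edgeR on all 15 samples (median −0.03). The fit of the 6 tumors alone called 1 higher and 3 lower. At an unadjusted p under 0.05, 3 were lower, and DESeq2 called 1 lower. Of 25 replication and repair genes 1 was higher in CT2A, and 0 in the fits that leave out any single tumor but Mut3 replicate 3. Mki67 was at 62.04, 82.3 and 75.95 CPM in CT2A and 273, 123 and 284 CPM in Mut3 (log2 fold change −1.63 ± 0.59, adjusted p = 0.0850), and Cdc20, an activator of the anaphase complex, at 22.3, 26.5 and 18.5 CPM against 91.9, 51.7 and 75.8 CPM (log2 fold change −1.70 ± 0.55, adjusted p = 0.0547). For these genes all Mut3 values were the higher ones, without passing the test. Cdk1 was at 195, 325 and 323 CPM against 211, 131 and 220.1 CPM (0.58, adjusted p = 0.570). Of 18 G1 cyclins, kinases and inhibitors, 2 were higher and 1 lower (median 0.27). The higher ones were the cyclins Ccnd1 and Ccnd2, and the number higher was 0 without CT2A replicate 2 or 3 or Mut3 replicate 1 or 2, and 1 without Mut3 replicate 3. The inhibitor Cdkn1c was lower in CT2A, at 1.59, 0.621 and 0.646 CPM against 36.2, 23.8 and 18.7 CPM (log2 fold change −4.74 ± 0.60, adjusted p = 0.000246). Myc, which drives growth and the cell cycle, was also lower, at 28.1, 31.1 and 26.7 CPM against 158, 159.5 and 86.9 CPM (log2 fold change −2.24 ± 0.45, adjusted p = 0.00490), as was the imprinted fetal RNA H19, at 4.03, 3.88 and 5.94 CPM against 132, 84.8 and 22.8 CPM (log2 fold change −4.10 ± 0.54, adjusted p = 0.000327). Hmga1, a chromatin protein like Hmga2, was higher, at 41.6, 63.96 and 53.7 CPM against 0, 1.38 and 2.29 CPM (log2 fold change 5.39 ± 0.90, adjusted p = 0.00146).

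In the Notch pathway, in which ligands on one cell act on receptors of the next, the ligand Jag1 was at 68.1, 106 and 124 CPM in CT2A and 11.6, 14.97 and 13.98 CPM in Mut3 (log2 fold change 2.87 ± 0.40, adjusted p = 0.000470). The target Hes1 was at 23.9, 38.8 and 45.3 CPM against 6.04, 7.42 and 2.20 CPM (log2 fold change 2.79 ± 0.47, adjusted p = 0.00146), whereas the target Hes5 had 2, 0 and 0 counts against 78, 19 and 9 (count ratio 41.96, 95% exact interval 11.3 to 351, as Mut3 over CT2A; its call was lost without Mut3 replicate 1). The receptor Notch1 was called lower in CT2A, but 1 tumor decided the size: Mut3 replicate 2 was at 88.1 CPM and the others at 4.92 and 2.90 CPM, and without it the difference was −1.86 with an adjusted p of 0.323. Its call was also lost without CT2A replicate 1 (−5.08), 2 (−4.67) or 3 (−4.77). Of 16 pathway genes tested, 2 were called higher and 2 lower. Without CT2A replicate 2, CT2A replicate 3 or Mut3 replicate 1 the number lower was 1.

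Most interferon-inducible genes were higher in CT2A. Cells that sense viral or foreign nucleic acid secrete type I interferons, which switch on genes that carry the interferon-stimulated response element. Of 35 interferon-inducible genes of the list that were tested, 21 were higher in CT2A and 0 lower, and the median log2 fold change was 2.52. All 3 CT2A values were above all 3 Mut3 values for 28 of the 35, beside 19.9% of all genes. The number of higher members was 16 to 21 over the fits that leave out a tumor, and 16 to 25 over the other settings. The promoters of 4 genes that were higher and of 1 that was not called (Igtp) are shown to illustrate the element, with the letters TTTCNNTTTC, or their complement GAAANNGAAA, in capitals wherever they lie within the 50 bases shown. In Isg15 3 overlapping matches form 1 run. The sequences are from RefSeq on GRCm38.p6 and are written 5′ to 3′ on the strand of the gene. They lie at chr19:34640765-34640814 (+, Ifit1), chr19:34583353-34583402 (+, Ifit3), chr12:26456543-26456592 (−, Rsad2), chr4:156200867-156200916 (−, Isg15) and chr11:58199502-58199551 (+, Igtp).
Ifit1: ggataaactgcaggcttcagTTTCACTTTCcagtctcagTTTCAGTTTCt
Ifit3: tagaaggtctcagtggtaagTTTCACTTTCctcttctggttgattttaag
Rsad2: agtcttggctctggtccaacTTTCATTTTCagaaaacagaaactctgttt
Isg15: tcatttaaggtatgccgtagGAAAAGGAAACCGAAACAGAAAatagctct
Igtp: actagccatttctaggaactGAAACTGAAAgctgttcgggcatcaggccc

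These letters were searched on both strands of the 250 bases before the start of each gene. They were found for 936 of 27025 genes with a promoter sequence (3.46%) and for 14 of 26 genes on the list with one (53.8%). Among list genes that were higher in CT2A, 7 of 15 carried the letters, and among those tested and not called, 7 of 11, and the share was not larger among the former. A match is a description of the sequence and not of binding.

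Ifit1, a protein that binds foreign RNA, was at 167, 242 and 286 CPM in CT2A tumors, 4.81, 12.96 and 9.59 CPM in Mut3 tumors and 13.9, 5.48 and 6.76 CPM in naïve brain (log2 fold change 4.67 ± 0.56, adjusted p = 0.000156). Ifit3 was at 229, 359 and 383 CPM against 12.4, 39.9 and 27.9 CPM (log2 fold change 3.60 ± 0.52, adjusted p = 0.000561), with the limit that reads may be shared with its near copy Ifit3b. Rsad2, the antiviral enzyme viperin, was at 61.5, 26.2 and 23.1 CPM against 1.68, 4.78 and 1.41 CPM (log2 fold change 3.83 ± 0.65, adjusted p = 0.00153). Isg15, a ubiquitin-like protein, was at 10.7, 13.8 and 11.6 CPM against 0.559, 2.39 and 0.967 CPM (log2 fold change 3.21 ± 0.67, adjusted p = 0.00584). For each of these genes every CT2A tumor was above every Mut3 tumor, and for Ifit1 Mut3 tumors overlapped naïve brain. Summed over the list, interferon-inducible genes were at 2760 to 3892 CPM in CT2A and 441 to 1504 CPM in Mut3. Naïve brain had 262 to 385 CPM, so every Mut3 tumor was above it in sum.

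Among the other members that were higher, Irf7, the factor that amplifies interferon production, was at 15.1, 28.9 and 38.4 CPM against 1.01, 3.40 and 1.85 CPM (log2 fold change 3.72 ± 0.68, adjusted p = 0.00275). Ifih1, the RNA sensor MDA5, was at 41.3, 58.2 and 37.6 CPM against 1.01, 7.05 and 2.99 CPM (log2 fold change 3.64 ± 0.60, adjusted p = 0.00131). Usp18, which restrains the receptor, was at 76.2, 179 and 143 CPM against 19.1, 26.9 and 12.8 CPM (log2 fold change 2.76 ± 0.59, adjusted p = 0.00666). Rtp4 was at 186, 229 and 216 CPM against 7.16, 20.9 and 23.7 CPM (log2 fold change 3.60 ± 0.55, adjusted p = 0.000788). Ifi44 had the largest fold change of the list while varying among CT2A tumors (39.8, 84.5 and 193 CPM against 1.34, 3.40 and 3.69 CPM, log2 fold change 5.22 ± 1.08, adjusted p = 0.00568).

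Of the list, 14 genes were not called. The GTPase Igtp was at 98.8, 164 and 139.6 CPM in CT2A and 31.1, 73.6 and 224 CPM in Mut3 (log2 fold change 0.29 ± 0.69, adjusted p = 0.822). Irf1 (0.83, adjusted p = 0.365), Irgm1 (0.58, adjusted p = 0.493) and Gbp2 (1.58, adjusted p = 0.185) did not pass the test either. Iigp1, a GTPase of the family of Igtp, was higher (2.64, adjusted p = 0.0239). It lost its call without CT2A replicate 2 (2.71), CT2A replicate 3 (2.59), Mut3 replicate 1 (2.28) or Mut3 replicate 2 (2.50). Mut3 replicate 3 had the highest value of the 6 tumors for Igtp, and Mut3 replicate 1 the lowest.

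Genes of antigen presentation are given by class, and the difference between the classes was not tested. Of 18 MHC class I genes, 5 were higher in CT2A (27.8%, beside 6.61% of all genes) and 0 lower, with a median of 0.90. Of 11 class II genes 1 was higher (9.09%, median 0.09). The class I number was 3 without CT2A replicate 2, CT2A replicate 3, Mut3 replicate 1 or Mut3 replicate 2, since B2m and the peptide-trimming enzyme Erap1 lost their calls. The class II number was 0 without any single tumor but Mut3 replicate 3. B2m, the light chain of class I, was at 8353, 11458 and 12828 CPM in CT2A and 1039, 2763 and 4961 CPM in Mut3 (log2 fold change 1.90 ± 0.56, adjusted p = 0.0366), and its call was lost without CT2A replicate 2 (1.93), CT2A replicate 3 (1.77), Mut3 replicate 1 (1.55) or Mut3 replicate 2 (1.86). The class I chains H2-Q6 (56.7, 68.3 and 86.3 CPM against 1.57, 5.41 and 4.40 CPM, log2 fold change 4.21 ± 0.54, adjusted p = 0.000268) and H2-Q7 (93.2, 114 and 122 CPM against 4.48, 8.56 and 9.50 CPM, log2 fold change 3.86 ± 0.54, adjusted p = 0.000426) were higher, though such near-identical genes may share reads. H2-K1 (1.36, adjusted p = 0.109) and H2-D1 (0.74, adjusted p = 0.357) did not pass the test. The class II chain H2-Aa ranged as widely within Mut3 as between the lines, at 140.2, 254 and 239.6 CPM in CT2A and 44.97, 158 and 422 CPM in Mut3 (log2 fold change 0.02 ± 0.72, adjusted p = 0.991).

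**Figure D4:**
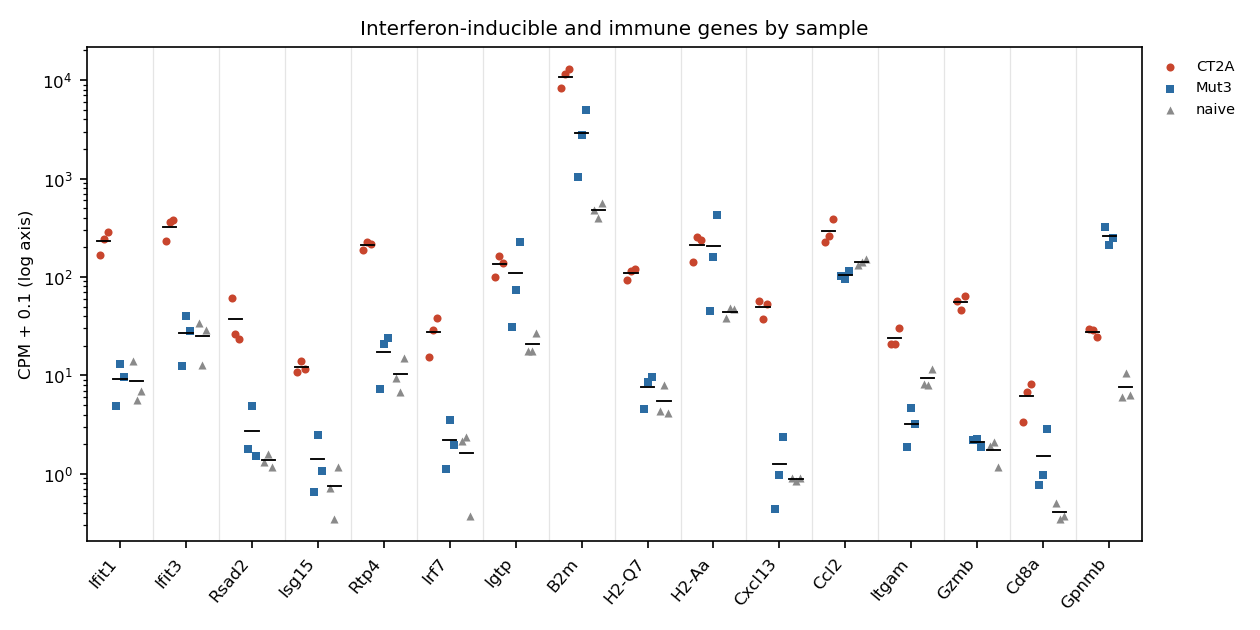
Level of 16 interferon-inducible and immune genes in each CT2A, Mut3 and naïve sample (CPM + 0.1, log axis), n = 3 per group; the black bar is the mean. Ifit1 to Irf7 are higher in every CT2A tumor, whereas Igtp and H2-Aa overlap between CT2A and Mut3 and Gpnmb is higher in Mut3.

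Many myeloid genes were higher in CT2A. Of 23 genes of monocytes and macrophages, 10 were higher and 1 lower (median 1.43), and their summed level was 4216 to 5748 CPM in CT2A, 1777 to 2342 CPM in Mut3 and 970.3 to 1363 CPM in naïve brain. Spp1 made up most of the CT2A sums. Without it, a choice made after the values were seen, the sums overlapped, at 1784, 1752 and 2226 CPM in CT2A and 1263, 1981 and 2076 CPM in Mut3. Itgam, the integrin chain CD11b, was at 20.6, 20.6 and 30.1 CPM in CT2A and 1.79, 4.53 and 3.08 CPM in Mut3 (log2 fold change 2.92 ± 0.37, adjusted p = 0.000214). Cd14, a receptor of bacterial lipopolysaccharide, was at 52.8, 74.8 and 46.2 CPM against 6.38, 11.95 and 6.596 CPM (log2 fold change 2.80 ± 0.48, adjusted p = 0.00172). Ms4a4c, a gene of monocytes, was at 14.7, 29.96 and 33.5 CPM against 0.559, 1.26 and 2.46 CPM (log2 fold change 4.15 ± 0.68, adjusted p = 0.00131). Osteopontin (Spp1), which tumor cells can also secrete, was at 2432, 3012 and 3522 CPM against 514, 361 and 204 CPM (log2 fold change 3.05 ± 0.69, adjusted p = 0.00951). Gpnmb was the exception, at 29.4, 28.9 and 24.4 CPM in CT2A and 320.1, 210.0 and 247 CPM in Mut3 (log2 fold change −3.23 ± 0.38, adjusted p = 0.000143); it is a gene of lipid-laden macrophages and of pigment and glioma cells. The macrophage marker Adgre1 did not pass the test (14.2, 18.01 and 25.2 CPM against 2.01, 5.79 and 13.4 CPM, 1.43, adjusted p = 0.127), nor did Mrc1 (1.32, adjusted p = 0.0775). Without Mut3 replicate 1 the number of higher members was 5 and of lower ones 2, and in limma on log2(TPM + 1) it was 6.

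Of 16 microglial genes, 5 were higher and 1 lower (median 1.16), with a summed level of 367 to 458 CPM in CT2A, 148 to 246 CPM in Mut3 and 330.3 to 397 CPM in naïve brain. The number higher was 1 without CT2A replicate 3, 2 without Mut3 replicate 1, 4 without Mut3 replicate 2 and 3 without any other tumor. The number lower was 0 in these fits except that without Mut3 replicate 2. Cx3cr1, the fractalkine receptor, was at 15.4, 14.9 and 15.4 CPM in CT2A and 2.91, 4.15 and 5.01 CPM in Mut3 (log2 fold change 1.91 ± 0.37, adjusted p = 0.00367). The homeostatic receptor P2ry12 was below naïve brain in both (12.5, 8.07 and 7.49 CPM and 1.90, 4.78 and 5.54 CPM against 60.2, 31.9 and 57.6 CPM) and did not pass the test between the lines (1.19, adjusted p = 0.178). Ptprc, the leukocyte marker CD45, was at 19.5, 37.4 and 37.2 CPM against 9.40, 2.26 and 11.1 CPM (log2 fold change 2.04 ± 0.70, adjusted p = 0.0666), short of the threshold.

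Of 17 T cell genes tested, 2 were higher in CT2A (11.8%, beside 6.61% of all genes) and 0 lower. DESeq2 called 7 higher, and the fit of the 6 tumors alone 5. The number was 0 without Mut3 replicate 1 or 2, 1 without CT2A replicate 2 or 3, and 4 without Mut3 replicate 3. All 17 had a positive fold change (median 2.00, or 1.94 over the 14 above the floor). The called genes were the receptor chain Trbc2 (1.89, adjusted p = 0.0272), lost in 4 of the 6 fits that leave out a tumor (1.59 to 2.04), and Icos. Icos, a costimulatory receptor (2.98, adjusted p = 0.0180), lost its call without Mut3 replicate 1 (2.99) or Mut3 replicate 2 (2.72). The defining gene Cd3e had 2, 0 and 5 counts in CT2A and 1, 0 and 1 in Mut3 and was not tested. Cd8a was at 3.30, 6.68 and 8.14 CPM against 0.671, 0.881 and 2.73 CPM (log2 fold change 2.04 ± 0.70, adjusted p = 0.0687) and Cd4 at 1.71, 1.71 and 1.29 CPM against 1.23, 1.51 and 1.495 CPM (log2 fold change 0.15 ± 0.88, adjusted p = 0.932). The summed level of T cell genes was 63.7 to 112 CPM in CT2A and 14.8 to 39.4 CPM in Mut3. Naïve brain, at 35.9 to 80.2 CPM, overlapped both. Of 15 NK and cytotoxic genes, 3 were higher (20%, beside 6.61% of all genes), and 6 with DESeq2 and 6 without Mut3 replicate 3. Their summed level was 442 to 675 CPM in CT2A and 83.0 to 149 CPM in Mut3. Gzmb, a protease of killer cells, was at 57.2, 45.6 and 64.5 CPM in CT2A and 2.13, 2.14 and 1.76 CPM in Mut3 (log2 fold change 4.79 ± 0.74, adjusted p = 0.000870), and the pore-forming Prf1 had 32, 19 and 16 counts against 0, 0 and 1 (count ratio 84.6, 95% exact interval 14.7 to 3392). The NK receptor Ncr1 was near 0 in all 6 tumors, with 7, 1 and 0 counts in CT2A and 0, 0 and 2 in Mut3. The B cell gene Cd79a was also at or near the floor, and 1 of 8 tested B cell genes was called higher (12.5%, beside 6.61% of all genes), with summed levels that overlapped (103 to 191 CPM in CT2A and 23.4 to 249 CPM in Mut3). None was called without CT2A replicate 3, Mut3 replicate 1 or Mut3 replicate 3. Of 7 tested genes of neutrophils and eosinophils, 0 were called by edgeR or DESeq2 and 0 had an unadjusted p under 0.05. Of 15 genes of dendritic cells, edgeR called 1 higher (6.67%, near the 6.61% of all genes) and 0 lower, and DESeq2 called 1 higher and 2 lower. Without Mut3 replicate 2, 1 gene of neutrophils and eosinophils was called higher, and without CT2A replicate 2 or 3, 1 of dendritic cells was called lower.

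Among 13 genes of checkpoints and exhaustion, 4 were higher in CT2A and 0 lower. Each of the 4, Havcr2, Cd274, Vsir and Ido1, lost its call in 4 to 6 of the fits that leave out a tumor, which called 0 to 2. Cd274, the gene of PD-L1, was at 12.2, 21.4 and 18.99 CPM in CT2A and 2.46, 2.14 and 6.07 CPM in Mut3 (log2 fold change 2.28 ± 0.70, adjusted p = 0.0449), with log2 fold changes of 2.02 to 2.49 in the 5 fits that lost its call. Pdcd1, the receptor PD-1, did not pass the test (0.366, 2.17 and 2.71 CPM against 0, 0.503 and 0.967 CPM, adjusted p = 0.227). All 24 chemokines tested had a positive fold change, 6 were called and the median was 1.44. Without CT2A replicate 3 the number was 3, since Ccl2 (1.22, adjusted p = 0.0581), Ccl7 (1.06, adjusted p = 0.192) and Cx3cl1 (2.20, adjusted p = 0.0720) lost their calls. Cxcl13, which attracts B cells, was at 57.3, 37.7 and 53.2 CPM in CT2A and 0.336, 0.881 and 2.29 CPM in Mut3 (log2 fold change 5.35 ± 0.71, adjusted p = 0.000343). The myeloid attractants Ccl12 (77.4, 124 and 223 CPM against 6.38, 20.6 and 40.8 CPM, log2 fold change 2.64 ± 0.60, adjusted p = 0.00964) and Ccl4 (22.5, 63.2 and 63.6 CPM against 8.61, 7.05 and 12.3 CPM, log2 fold change 2.41 ± 0.50, adjusted p = 0.00584) were higher too. Cxcl10 (2.21, adjusted p = 0.0777) and Ccl5 (2.00, adjusted p = 0.0935), which attract T cells, did not pass the test, although all CT2A values were the higher ones.

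Of 28 cytokines and growth factors, 8 were higher in CT2A and 2 lower (1 lower without Mut3 replicate 2 or any single CT2A tumor). Il34, a ligand of the CSF1 receptor, was at 11.4, 8.23 and 10.2 CPM in CT2A and 1.01, 1.89 and 1.76 CPM in Mut3 (log2 fold change 2.67 ± 0.42, adjusted p = 0.00105), and the alarmin Il33 at 45.3, 58.99 and 45.9 CPM against 4.70, 15.9 and 3.78 CPM (log2 fold change 2.63 ± 0.57, adjusted p = 0.00739). Pdgfc, a ligand of the PDGF receptors, was at 26.5, 18.6 and 14.5 CPM against 0.671, 1.13 and 0.264 CPM (log2 fold change 4.86 ± 0.57, adjusted p = 0.000128). Bdnf was higher as well (113, 21.4 and 53.1 CPM against 0.895, 7.42 and 1.93 CPM, log2 fold change 4.21 ± 0.74, adjusted p = 0.00201), with its highest value in CT2A replicate 1, which had the most neuronal transcripts of the 6 tumors. Il18 was lower, at 7.57, 8.23 and 6.59 CPM against 20.6, 34.2 and 19.9 CPM (log2 fold change −1.74 ± 0.39, adjusted p = 0.00929). Of 15 complement genes, 4 were higher and 1 lower: C5ar1, the receptor of C5a, was at 17.1, 21.6 and 26.4 CPM against 2.46, 6.42 and 6.24 CPM (log2 fold change 2.10 ± 0.51, adjusted p = 0.0146, lost without CT2A replicate 3 at 1.94 or Mut3 replicate 1 at 1.84). The number higher was 0 without Mut3 replicate 1 and 1 without CT2A replicate 3 or Mut3 replicate 2, and the number lower was 0 without CT2A replicate 2 or 3.

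Of 23 endothelial genes, 0 were higher and 0 lower with DESeq2 or with edgeR on all 15 samples (median −0.22). The fit of the 6 tumors alone called 1 lower, and 2 were lower at an unadjusted p under 0.05. Of 9 mural cell genes edgeR called 0 on all 15 samples (median −0.54), and 1 higher and 1 lower on the 6 tumors alone. At an unadjusted p under 0.05, 1 was higher and 3 lower, and DESeq2 called 1 higher. Without CT2A replicate 1 edgeR called 1 mural cell gene higher and 1 lower, and without CT2A replicate 3 or Mut3 replicate 1 it called 1 lower. Pecam1, the gene of CD31, was at 83.9, 77.3 and 85.4 CPM in CT2A, 75.1, 75.7 and 77.2 CPM in Mut3 and 138, 162 and 149 CPM in naïve brain (log2 fold change 0.11 ± 0.25, adjusted p = 0.809), and Kdr, a VEGF receptor, at 2.56, 6.05 and 3.36 CPM against 8.39, 9.31 and 6.24 CPM (log2 fold change −1.001 ± 0.52, adjusted p = 0.216). Summed over the list, endothelial genes were at 175 to 184 CPM in CT2A and 189 to 233 CPM in Mut3. Mural cell genes summed to 111 to 121 CPM in CT2A and 153 to 185 CPM in Mut3. Vegfa was at 24.5, 32.1 and 50.1 CPM against 72.3, 49.3 and 43.01 CPM (−0.62, adjusted p = 0.337). Of 16 angiogenic ligands, 4 were higher in CT2A and 1 lower. The number higher was 1 without CT2A replicate 3 or Mut3 replicate 1 and 2 without any other tumor, since Vegfd, Fgf2 and Sema3a each lost the call in 4 or 5 of the 6 fits. The lower one, Angpt2, an antagonist of the Tie2 receptor, was at 15.9, 17.2 and 19.8 CPM against 22.7, 55.4 and 71.3 CPM (−1.50, adjusted p = 0.0385), and its call was lost in 5 of the 6 fits that leave out a tumor (−1.58 to −1.03). Efnb2, a ligand of Eph receptors, was higher and kept its call in each of these fits (8.43, 8.54 and 8.65 CPM against 2.35, 3.52 and 2.20 CPM, log2 fold change 1.67 ± 0.39, adjusted p = 0.0114). The hypoxia markers Car9 (−1.53, adjusted p = 0.152) and Slc2a1 (−0.40, adjusted p = 0.542) did not pass the test. Of 22 genes of hypoxia and glycolysis, 2 were higher (9.09%, near the 6.61% of all genes), and 1 without CT2A replicate 3.

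Transcripts of normal brain moved with these groups and are therefore given for the whole lists. All 19 neuronal genes had a positive fold change (median 2.20), and 4 were called higher. None was called without CT2A replicate 1, with log2 fold changes of 1.44 to 2.51, or without Mut3 replicate 1, with 2.01 to 3.22. Snap25, a synaptic protein, was at 466, 90.4 and 106 CPM in CT2A, 26.6, 59.5 and 56.6 CPM in Mut3 and 2369, 1810.0 and 3349.5 CPM in naïve brain (2.21, adjusted p = 0.118). The tumor with the highest neuronal level, CT2A replicate 1, had 1620.2 CPM in sum, and without it 21 interferon-inducible, 14 mesenchymal, 9 monocyte and macrophage and 8 ERK feedback genes were higher and 16 progenitor genes lower, beside 21, 14, 10, 9 and 17 with all tumors. Oligodendrocyte genes summed to 262 to 1377 CPM in CT2A and 326 to 565 CPM in Mut3 (2 of 12 higher, 1 lower), and astrocyte genes to 754 to 1437 CPM in CT2A and 1440.0 to 2611 CPM in Mut3 (3 of 13 higher, 3 lower). The number of oligodendrocyte genes higher was 1 without CT2A replicate 1 or 2 or Mut3 replicate 1 or 2. For astrocyte genes the number higher was 1 without CT2A replicate 1, Mut3 replicate 1 or Mut3 replicate 3, and the number lower was 1 without CT2A replicate 2 or 3 or Mut3 replicate 1 or 2. S100b, a calcium-binding protein of glia, was at 105, 47.97 and 36.04 CPM in CT2A and 472, 609 and 602 CPM in Mut3 (log2 fold change −3.15 ± 0.67, adjusted p = 0.00646), and the gap junction gene Gja1 at 129.8, 167 and 202 CPM against 20.1, 18.2 and 21.02 CPM (log2 fold change 3.07 ± 0.40, adjusted p = 0.000300). Bdnf and Cdh2, named above, are at high level in naïve brain too, and the part of normal brain in their differences was not tested.

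**Figure D5:**
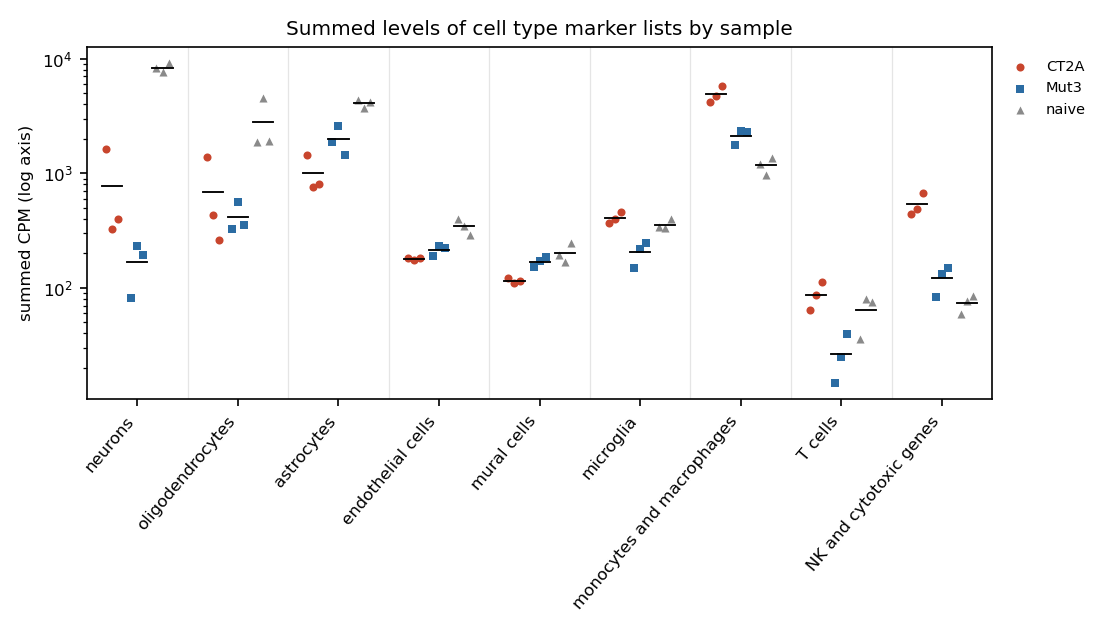
Summed level (CPM, log axis) of 9 marker lists in each CT2A, Mut3 and naïve sample, n = 3 per group; the black bar is the mean. Neuronal genes are highest in naïve brain and, among the tumors shown, in CT2A replicate 1. Endothelial and mural cell sums are lower in each CT2A tumor than in each Mut3 tumor. EdgeR on all 15 samples called 0 of 23 endothelial and 0 of 9 mural cell genes. T cell and cytotoxic genes are higher in each CT2A tumor than in each Mut3 tumor. Macrophage genes are higher too, but their sums overlap without Spp1 (1752 to 2226 CPM in CT2A and 1263 to 2076 CPM in Mut3).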

How the data were processed

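RNA of 15 samples (naïve brain and tumors of 4 lines, 3 mice each) was sequenced, and all 15 entered the fit. The authors deposited estimated counts (expected counts) and TPM, a level corrected for transcript length and library size, for 46679 genes. Their sources name STAR 2.4.2a, Salmon, DESeq2 1.18.1 and mm10; which tool gave the counts, the annotation release and the use of strand are not given in the sources used here. Reads shared by near-identical genes may have been split. Genes were named from GENCODE M21 (46201 matched), on GRCm38, the build of mm10.

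Here the estimated counts were rounded and genes with few reads removed (filterByExpr), leaving 17481. They were tested with edgeR 4.0.16 (R 4.3.3), using TMM normalization, the quasi-likelihood test and the contrast CT2A minus Mut3, with Benjamini-Hochberg adjustment over all genes. The spread came from all 15 samples, so the standard errors and adjusted p values also hold the spread within the other groups. Tumors of the 005 line varied widely, with neuronal genes at 370 to 5872 CPM and mitosis genes at 301 to 3056 CPM in sum. The standard error is the fold change divided by the square root of F. Genes with 3 or fewer counts in each library of the lower group are given by counts, with an exact 95% interval of their ratio or a bound, which cover counting error only.

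The genes named by rule were the first 3 of each list, up to 4 called members of each list in each direction with the largest fold change, the 10 called genes in each direction with the largest fold change among those with more than 3 counts in each library of the lower group, and 8 with 3 or fewer in each (for both, groups did not overlap, the higher group had a mean log2 CPM of 3 or more, and predicted genes were left out). Other genes named were chosen after their values were seen. The members and the lists were chosen with earlier results of these data known. Lists are described by counts and medians, with no set test. Each count is to be read beside 6.61% of all genes higher and 6.15% lower in the main fit. Alternatives were DESeq2 1.42.0, library-size scaling, other filters and thresholds, fits with fewer samples, limma 3.58.1 on log2(TPM + 1) and log2(TPM + 0.1), a replicate block, and leaving out each tumor. No 2 tumors were alike to within sampling noise. The labels name no sequencing batch. Some genes of the lists are not reported here. The fit was tested on simulated data for CT2A against Mut3. It recovered 29.4% of 197 changed genes, and 44.6% of those changed at least 4-fold. Of the 62 genes it called, 4 were unchanged. A gene that did not pass the test may therefore still differ.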

Additional observations from a re-analysis of the deposited data

How the results depend on the processing

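Directions held throughout: of 730 genes on the lists or named by rule, 237 were called, none of these changed sign in any setting, 117 were called in every setting that tested them and 88 lost the call without some single tumor. The number of genes higher in CT2A (1156) was 1737 with DESeq2, 1803 in the fit without the tumors of the 005 line, 728 among genes with at least 10 counts in each of the 6 samples and 517 in limma on log2(TPM + 1). It was 699 to 967 over the fits that leave out a tumor, the lowest without Mut3 replicate 1. The number lower (1075) was 1332 in the fit without the 005 tumors, 643 at a log2 fold change of at least 2 in size and 615 in limma on log2(TPM + 1). It was 502 to 793 over the fits that leave out a tumor, the lowest without CT2A replicate 2. Scaling by library size gave 926 higher and 1199 lower, and the 6 tumors alone 1550 and 1510. Progenitor genes lower in CT2A (17) numbered 10 with at least 10 counts per sample, 11 in limma on log2(TPM + 1) and 13 to 17 without a tumor. ERK feedback genes (9) numbered 4 and monocyte and macrophage genes (10) numbered 6 in limma on log2(TPM + 1). Without a tumor they numbered 5 to 8 and 5 to 10, the lowest without Mut3 replicate 1, which the former shared with CT2A replicate 2. Interferon-inducible genes (21) and mesenchymal genes (14) stayed within 1.5 times of these counts. Neuronal genes (4) numbered 9 in DESeq2, 9 without a filter, 8 in the 6 tumors alone, 11 without the 005 tumors, 2 with library-size scaling, 0 in limma with either pseudocount, 1 with the replicate block and 0 to 3 without a tumor. With the replicate number as a block, 980 genes were higher and 842 lower. Deviations of tumors with the same number correlated at −0.11, −0.09 and 0.08, so the numbers were taken not to pair the mice. DESeq2 also called 7 T cell genes (2), 6 NK and cytotoxic genes (3), 8 microglial genes (5), 7 complement genes (4) and 7 angiogenic ligands (4) higher. The causes were not tested. With 3 tumors a group and 7246421 to 11308105 counts a tumor, the lymphocyte genes Cd3e and Ncr1 were at or near the floor.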

Other observations

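The 3 gene groups and the transcripts that follow were chosen after their values were seen, so they are descriptions and support no result. The cartilage collagens among the genes that were lower in CT2A led to a list of 19 cartilage genes, of which 15 were tested, 13 were lower in CT2A and 0 higher (1 higher without Mut3 replicate 2), with a median log2 fold change of −4.55. Besides Col2a1, Col9a1, Col9a3 and Col11a1 they held Col9a2 (0.855, 0.466 and 1.03 CPM in CT2A against 38.7, 32.3 and 37.7 CPM in Mut3, log2 fold change −5.48 ± 0.60, adjusted p = 8.59e-05), Col11a2 (0.611, 0.776 and 0.646 CPM against 13.1, 14.8 and 20.7 CPM, log2 fold change −4.55 ± 0.51, adjusted p = 0.000105) and the matrix protein Matn2 (15.1, 15.4 and 18.9 CPM against 130.1, 206 and 43.1 CPM, log2 fold change −2.94 ± 0.46, adjusted p = 0.000900). Sox6, a partner of Sox9 in cartilage and a factor of oligodendrocyte progenitors, was at 3.66, 0.310 and 7.88 CPM against 356, 179 and 383 CPM (log2 fold change −6.26 ± 0.77, adjusted p = 0.000205). Aggrecan (Acan) had 2, 2 and 0 counts in CT2A and 61, 95 and 110 in Mut3 (count ratio 52.7, 95% exact interval 20.3 to 195, as Mut3 over CT2A). Sox9, which activates many of these genes in cartilage, was not called (1.185, adjusted p = 0.114). Snorc was at 2.24, 6.79 and 65.3 CPM in Mut3, and without Mut3 replicate 3 its call was lost, at −2.67.

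Granzymes of the cluster on chromosome 14 had larger fold changes than those on chromosome 13. Gzmd was at 90.4, 71.9 and 58.9 CPM in CT2A and 1.23, 0.755 and 1.14 CPM in Mut3 (log2 fold change 6.11 ± 1.32, adjusted p = 0.00738), Gzmf at 119.9, 78.7 and 56.2 CPM against 1.12, 0.755 and 0.792 CPM (log2 fold change 6.55 ± 1.46, adjusted p = 0.00870) and Gzmg at 78.4, 68.9 and 54.5 CPM against 0.112, 1.51 and 0.792 CPM (log2 fold change 6.38 ± 1.39, adjusted p = 0.00760). Gzma on chromosome 13 did not pass the test (13.9, 12.6 and 10.6 CPM against 1.68, 1.89 and 3.78 CPM, 2.31, adjusted p = 0.0823). The members of the cluster are alike in sequence and may share reads. Of 8 granzymes tested, 6 were higher in CT2A. Among markers of T and NK cells, Cd3e and Ncr1 were at or near 0 in all 6 tumors, while all 17 T cell genes and 14 of 15 NK and cytotoxic genes had a positive fold change. Klra4, a receptor gene of NK cells with close relatives, was at 71.4, 96.3 and 45.1 CPM in CT2A and 0.336, 0 and 0.616 CPM in Mut3 (log2 fold change 7.64 ± 1.00, adjusted p = 0.000300).

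Of 11 genes of the Ifi200 family on chromosome 1, DNA-binding proteins induced by interferon, 7 were higher in CT2A and 0 lower. Ifi204 was at 99.5, 178 and 179 CPM against 2.80, 10.7 and 6.24 CPM (log2 fold change 4.53 ± 0.64, adjusted p = 0.000504), and Ifi211 at 177, 332 and 331 CPM against 3.13, 9.44 and 9.23 CPM (log2 fold change 5.26 ± 0.87, adjusted p = 0.00130), again with near-identical copies. Ifnb1, the gene of interferon beta, was not tested, with 7, 10 and 6 counts in CT2A and 4, 0 and 6 in Mut3.

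Xist, the RNA that silences an X chromosome in female cells, was at 319, 235 and 392 CPM in CT2A, 2.80, 9.06 and 12.1 CPM in Mut3 and 36.1, 145 and 19.7 CPM in naïve brain (log2 fold change 5.29 ± 0.83, adjusted p = 0.000937). Its antisense partner Tsix was at 771, 854 and 1430.1 CPM, 7.72, 20.9 and 14.2 CPM and 92.6, 62.03 and 102 CPM (log2 fold change 6.16 ± 0.49, adjusted p = 6.66e-06). The genes overlap, and reads may not have been told apart by strand. The samples carry no label of sex, and none was assigned.

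Among genes with a mean of at least 5 CPM, the median log2 fold change of 356 genes on chromosome 19 was 0.54, and that of 348 genes on chromosome 14 was −0.49. Of these genes, 67 were called higher and 11 lower on chromosome 19, and 25 higher and 47 lower on chromosome 14. The medians of the other autosomes and of the X chromosome lay between −0.30 and 0.29. Copy number was not measured.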
